A study of Mus musculus with 2 samples.

Results

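Clone L3 and clone L5 of the 2-cell-stage gene family, the endogenous retrovirus MuERV-L and 1 retrotransposon clone were followed in mouse morulae after LIF-siRNA injection. Spots were chosen by name, from any gene spot whose name held MuERV-L, 2-cell-stage gene family, endogenous retrovirus, intracisternal A, retrotransposon or murine leukemia virus. The names gave 4 of 8735 gene spots, and no spot was named for an intracisternal A particle or a murine leukemia virus. L3 is named as a variable group member and L5 as a uniform group member of the 2-cell-stage family, both as complete coding sequences. MuERV-L is named for its gag, pol and dUTPase genes, and the fourth spot is an expressed sequence tag (EST) only weakly similar to the reverse transcriptase homolog of a mouse retrotransposon. The clones were taken up because their ratios in these data were already known to be high, so their ratios are described and not tested.

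The mouse embryo takes over transcription from the oocyte at the 2-cell stage. MuERV-L, a retrovirus-like element present in many copies in the mouse genome, is transcribed in this short window together with the 2-cell-stage gene family, and both fall to lower levels in later cleavage stages. Other retroelements follow their own courses, among them LINE-1, early transposons (ETn) and the gag, pol and env genes of other endogenous retroviruses. A cDNA spot reads transcripts of all copies or relatives that are alike enough to hybridize, so a signal cannot be given to 1 genomic copy.

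Zygotes of strain B6CBF1 were injected into the cytoplasm with siRNA against LIF, a cytokine of the preimplantation embryo and reproductive tract, or with scrambled siRNA as the control. The labels give 1.0 fmol in 1 pl, and other doses stand elsewhere in the sources. RNA of whole embryos at the morula stage, labelled as age 4 d, was marked with Cy5 for LIF-siRNA and with Cy3 for scrambled siRNA, and both were hybridized to the same array. There were 2 arrays with the same dye order, so the dye and the siRNA cannot be told apart for any spot. Whether each array had its own embryo pool is not given in the sources used here, and a description among the labels speaks of embryonic stem cells, unlike the titles and RNA sources. The spot of LIF itself was not found by name, so the knockdown was not checked on these arrays. In whole embryos, fewer cells with a transcript, less transcript per cell and a shift in stage cannot be told apart.

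The median signal over local background lay between 4.83 and 6.60 over both channels and arrays, and no gene spot was saturated. The log2 ratio of LIF-siRNA over scrambled siRNA was compared over 8079 tested gene spots, those that carried no outlier mark and that the software put well above background on both arrays, in one channel or both. Its median was 0.00 on both arrays, and the SD between the arrays had a median of 0.25 and a 90th percentile of 0.71 over spots. That SD is between 2 arrays of the same dye order, so it holds no dye effect shared by both. Whether it holds differences between embryo pools is not known. With 2 arrays, each value below is known at best to about that spread. Where LIF-siRNA and scrambled-siRNA signals are said not to overlap, 2 signals of each are compared. The share of all tested spots that part in this way was not counted.

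The 2-cell-stage clones and MuERV-L had much higher signals after LIF-siRNA on both arrays, and the retrotransposon EST did not. L5, of the uniform group, had processed signals (background-subtracted and dye-normalized brightness) of 5777 and 7083 with LIF-siRNA on arrays 1 and 2, and of 899 and 831 with scrambled siRNA. Its ratio was 6.42 and 8.53, a mean log2 ratio of 2.89 ± 0.29 (SD, n = 2 arrays). Both LIF-siRNA signals were far above both scrambled-siRNA signals, and no tested spot exceeded L5 on both arrays.

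L3, of the variable group, had signals of 10417 and 12351 with LIF-siRNA and of 1699 and 1724 with scrambled siRNA. Its ratio was 6.13 and 7.17, a mean log2 ratio of 2.73 ± 0.16 (SD, n = 2 arrays). The scrambled-siRNA signal of L3 hardly moved between the arrays, and only 3 tested spots had higher ratios than L3 on both.

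MuERV-L had signals of 6526 and 7974 with LIF-siRNA and of 1304 and 2225 with scrambled siRNA. Its ratio was 5.00 and 3.58, a mean log2 ratio of 2.08 ± 0.34 (SD, n = 2 arrays), and 20 tested spots were higher on both arrays. The smaller ratio on array 2 came with a scrambled-siRNA signal 1.71 times that of array 1, while the LIF-siRNA signal was 1.22 times that of array 1. The groups still did not overlap, since the lowest LIF-siRNA signal was above the highest scrambled-siRNA signal.

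The retrotransposon EST had signals of 1831 and 1879 with LIF-siRNA and of 2241 and 1333 with scrambled siRNA. Its ratio was 0.817 on array 1 and 1.41 on array 2, so its direction differed between arrays. The mean log2 ratio of 0.10 ± 0.56 (SD, n = 2 arrays) was smaller than its spread. The LIF-siRNA signals lay between the 2 scrambled-siRNA signals, and the scrambled-siRNA signal on array 2 was 0.595 times that on array 1.

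**Figure D1:**
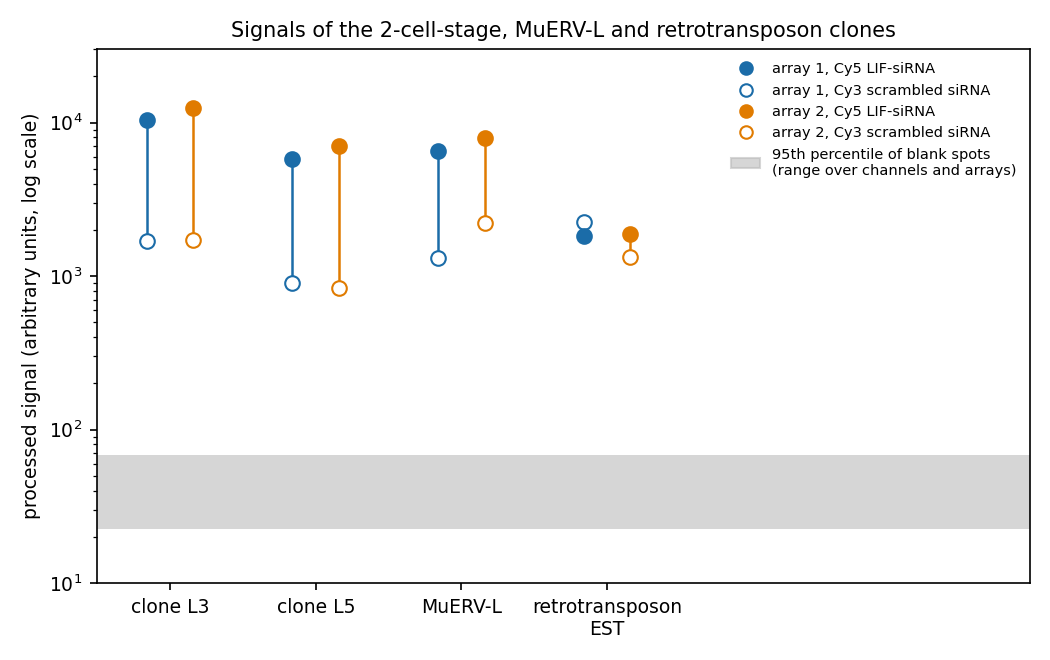
Processed signal (arbitrary units, log axis) of the 4 clones on array 1 (blue) and array 2 (orange), with LIF-siRNA as filled and scrambled siRNA as open circles and the 95th percentile of the blank spots (22.5 to 67.9 over channels and arrays) as a grey band. L3, L5 and MuERV-L have LIF-siRNA signals of 5777 to 12351 against scrambled-siRNA signals of 831 to 2225, the retrotransposon EST has no such gap, and all 16 signals lie above the grey band.

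None of these ratios rested on a channel at the background. All 4 clones were well above background in both channels on both arrays, and none was marked as an outlier or saturated. Their scrambled-siRNA signals were also above the median of all gene spots in that channel, 472 on array 1 and 484 on array 2. The weakest signal of the 4, L5 with scrambled siRNA on array 2, was 7.86 times its local background and above 99.8% of the 664 blank spots, and all other signals were above every blank spot. The coefficient of variation over the pixels of a spot lay between 4.3% and 11.3%. The 4 clones sat in different zones of the array, where the median log2 ratio of the gene spots lay between -0.14 and 0.13.

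The study's methods ask for a ratio above 2 and a signal above 1000 in either dye, and do not say how arrays were combined. A supplementary list of the study gives 6.4 for L5, 6.1 for L3 and 5.0 for MuERV-L, the ratios of array 1. It also holds epidermal growth factor, with processed signals here of 219 and 244 with LIF-siRNA and lower ones with scrambled siRNA. The combined rule used next is thus not the rule behind that list. With the geometric mean ratio and the mean processed signal of both arrays, 3 of the 4 clones were higher after LIF-siRNA, where 2.16% of 8712 gene spots were. None was lower, where 2.19% were. With the ratio past 2-fold on each array, again L3, L5 and MuERV-L were higher, against 2.78% of tested spots, and none was lower, against 3.03%. Since the clones were taken up for these ratios, the counts describe them and are no evidence of enrichment. Among the 3527 spots past the signal threshold, L5 was in place 3, L3 in place 6 and MuERV-L in place 13 by mean ratio.

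The order of the mean log2 ratios was L5, L3, MuERV-L and the retrotransposon EST. L5 and L3 differed little, with L3 below L5 by 0.07 on array 1 and 0.25 on array 2 (log2), which is within the spread between arrays. MuERV-L was below L3 by 0.29 and 1.00, and below L5 by 0.36 and 1.25. The order of MuERV-L below both was thus the same on the 2 arrays, but its distance on array 1 was of the size of the spread.

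**Figure D2:**
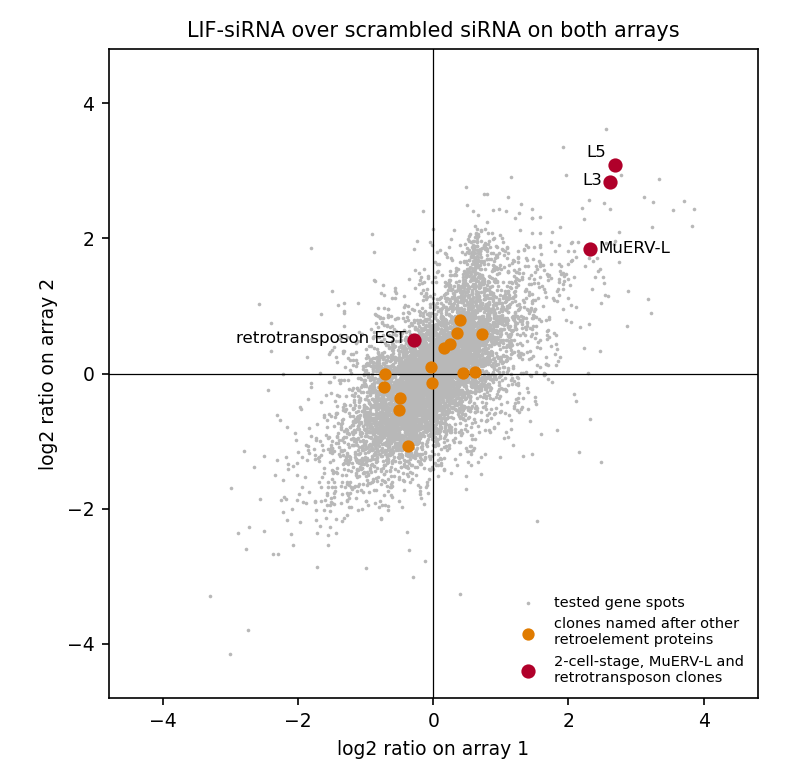
Log2 ratio of LIF-siRNA over scrambled siRNA on array 1 (horizontal) and array 2 (vertical) for 8079 tested gene spots (grey), the 4 clones (red) and 14 further clones named after retroelement proteins (orange). L5, L3 and MuERV-L stand at the upper right edge of the cloud, and none of the other clones comes near them.

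L3, L5 and MuERV-L stood apart from the retrotransposon EST on each array. Averaged over the 3, the log2 ratios came to 2.54 on array 1 and 2.59 on array 2, against -0.29 and 0.50 for the EST, a difference of 2.83 and 2.10. The lowest of the 3 was above the EST by 2.61 and 1.35 (log2).

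One clone is a narrow comparison. The arrays also held 14 gene spots whose names liken them to retroviral or LINE-1 proteins (gag, pol or env polyproteins, reverse transcriptase, LINE-1, ORF2 or an ETn insert) but lack the words used above. They were chosen once their values were known. Their log2 ratios ran from -0.72 to 0.72 on array 1, with a median of 0.07, and from -1.07 to 0.79 on array 2, with a median of 0.01. Without 2 clones at the level of blank spots, the 12 tested ones ran from -0.51 to 0.72 on array 1 and from -1.07 to 0.79 on array 2. None was past 2-fold on both arrays and none met the criteria, counts close to the shares over all spots given above.

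The mean log2 ratio of L3, L5 and MuERV-L exceeded that of the 14 clones by 2.54 on array 1 and 2.55 on array 2, and that of the 12 tested ones by 2.42 and 2.53. The sets did not overlap on either array, with 1.61 and 1.05 (log2) between the lowest of the 3 and the highest of the 14. Within the 14 the signs were mixed, with 7 above 0 on both arrays, 5 below 0 on both and 2 with neither.

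The lowest mean log2 ratio of the 14 was that of an EST weakly similar to a mouse retrovirus-related env polyprotein, the coat protein gene of a retrovirus. Its signals were 19832 and 14427 with LIF-siRNA and 25797 and 30297 with scrambled siRNA, log2 ratios of -0.38 and -1.07. This spot had the opposite sign to L3, L5 and MuERV-L on both arrays.

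An EST moderately similar to a Pro-Pol-dUTPase polyprotein had signals of 1336 and 1672 with LIF-siRNA and of 1363 and 1566 with scrambled siRNA. Its log2 ratios were -0.03 and 0.09, close to 0. MuERV-L is itself named for gag, pol and dUTPase genes, and the name of the EST does not say which element the polyprotein belongs to. This spot may thus be likened to MuERV-L itself or to a relative, and need not stand for a different element. An EST highly similar to an ETn insert, from a family of transposons transcribed in early embryos, had log2 ratios of -0.51 and -0.55. The LINE-1 clone had -0.49 and -0.36 at signals of 110 to 154, and thus also lay below 0 on both arrays.

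The highest of the 14 by the mean of both arrays was 1 of 2 ESTs weakly similar to ORF2, the name of the LINE-1 reading frame that codes for reverse transcriptase and endonuclease. Its log2 ratios were 0.72 and 0.59, while those of the other ORF2 clone were -0.03 and -0.15. Clones with the same protein in their name thus differed from each other. The clone named for a putative gag and pol gene product had 0.39 and 0.79, and 2 clones named for an envelope polyprotein had 0.35 and 0.60, and 0.44 and 0.01. The dimmest were a gag-related fragment and a Gag-Pro-Pol EST with signals of 11.3 to 27.8, the level of blank spots, and neither was among the 12 that were tested. The deposited log ratio of the Gag-Pro-Pol EST is listed at exactly 0 on array 2.

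**Figure D3:**
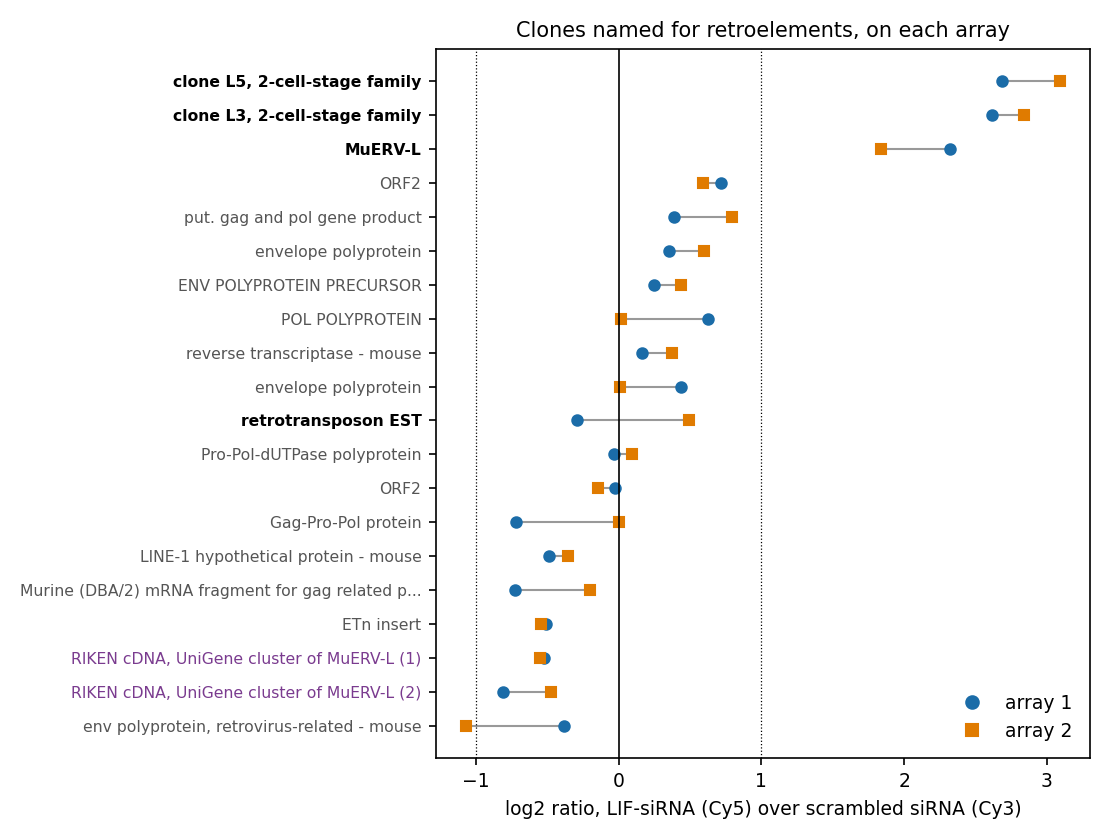
Log2 ratio of LIF-siRNA over scrambled siRNA on array 1 (blue circles) and array 2 (orange squares) for the 4 clones (bold), the 14 further clones named after retroelement proteins (grey names) and the 2 RIKEN spots of the UniGene cluster of MuERV-L (purple names), in the order of the mean. Dotted lines mark 2-fold, and L5, L3 and MuERV-L lie past it on both arrays while no other spot does so.

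The files place 2 other spots in the same UniGene cluster (a group of transcripts joined by sequence) as MuERV-L, both named RIKEN cDNA D730045A05 gene. They did not follow MuERV-L. The brighter one had signals of 912 and 852 with LIF-siRNA and of 1600 and 1180 with scrambled siRNA, log2 ratios of -0.81 and -0.47. The dimmer one had log2 ratios of -0.53 and -0.55 at signals of 24.4 to 42, close to blank spots. Both lay below 0 on both arrays while MuERV-L lay at 2.32 and 1.84. In the array files L3 and L5 carry different clusters that no other spot shares, while a supplementary list of the study puts both in 1 cluster.

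The spots nearest to L5 in the plane of both log2 ratios, out of 8078, were an unnamed EST and then L3, at a distance of 0.26 from L5. The nearest spots with a gene name by the deposited ratios were activin A receptor type II-like 1, a receptor of the TGF-beta superfamily, the homeobox transcription factor genes A10 and D10, epidermal growth factor and cystatin 9, of a family of protease inhibitors. Likeness was measured over 2 arrays only. The log2 ratios were 2.61 and 2.43 for homeobox A10, 2.23 and 2.29 for epidermal growth factor and 3.54 and 2.43 for cystatin 9.

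The scrambled-siRNA signals of the receptor (10.3 and 12.1) and homeobox D10 (11.4 and 14.7) were not well above background on either array. The size of their ratios, and so their likeness to L5, is therefore not measured. Epidermal growth factor had scrambled-siRNA signals of 46.7 and 49.8 and homeobox A10 of 88.7 and 47.7, against 95th percentiles of the blank spots of 53.7 and 67.9. Cystatin 9, at 173 and 606, and L5, at 899 and 831, were above that level on both arrays.

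Only 3 genes of a list of other 2-cell-stage transcripts were found by name. None was past 2-fold on both arrays, where 2.78% of all tested spots were higher and 3.03% lower, so the count says little about such transcripts. Translation initiation factor 1A (Eif1a), transcribed early in the embryo, had signals of 4298 and 4072 with LIF-siRNA and of 4176 and 4421 with scrambled siRNA, log2 ratios of 0.04 and -0.12. Heat shock proteins Hsp70-1 and Hsp70-3, which fold proteins and whose genes are switched on at genome activation, had log2 ratios of -0.15 and -0.54, and of 1.27 and 0.25. The second had signals of only 79.3 to 232.

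Among repressors of endogenous retroviruses and chromatin silencing genes, 25 of 26 spots were tested, for 23 genes. None was past 2-fold higher and 2 were past 2-fold lower on both arrays, where 2.78% of all tested spots were higher and 3.03% lower. The median log2 ratio was -0.32, against 0.00 over all tested spots. Of the 25, 15 lay below 0 on both arrays and 10 above, where 36.8% and 36.7% of all tested spots did. The medians of the single arrays were -0.26 and -0.27.

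Np95 (Uhrf1), which brings DNA methyltransferase to replicated DNA, had signals of 1428 and 1686 with LIF-siRNA and of 4225 and 5104 with scrambled siRNA. Its log2 ratios were -1.57 and -1.60. Daxx, a histone chaperone that works with Atrx, had signals of 1107 and 1187 with LIF-siRNA and of 2279 and 2566 with scrambled siRNA, log2 ratios of -1.04 and -1.11. In both, all LIF-siRNA signals lay below all scrambled-siRNA signals, a gap whose share over all tested spots was not counted. Daxx was close to the threshold, and with normexp and loess its mean log2 ratio was -0.998 in place of -1.08 and it was no longer past 2-fold on both arrays.

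Past 2-fold lower on 1 array only were Suv39h1, a histone H3 lysine methyltransferase, with ratios of 0.471 and 0.501, Dnmt3b, a de novo DNA methyltransferase, with log2 ratios of -0.73 and -1.49, and Zfp57, a zinc finger protein of imprint maintenance, with -0.49 and -1.31 at signals of 23.2 to 57.7. The LIF-siRNA signal of Zfp57 on array 2 was not well above background, so the size of its ratio there is not measured. Dnmt1, the maintenance methyltransferase, had -0.33 and -0.48. The highest mean log2 ratios among the 10 spots above 0 on both arrays were those of Cbx3, a heterochromatin protein, at 0.62 and 0.94, and Yy1, a DNA-binding regulator of retroviral promoters, at 0.63 and 0.65. The other 8 included Cbx1 (0.42 and 0.63), Rnf2 (0.37 and 0.63), Eed (0.32 and 0.39) and Zfp42 (0.54 and 0.16). These genes were named after their values had been seen. Whether any of them has a part in the ratios of MuERV-L or the 2-cell-stage clones was not tested.

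**Figure D4:**
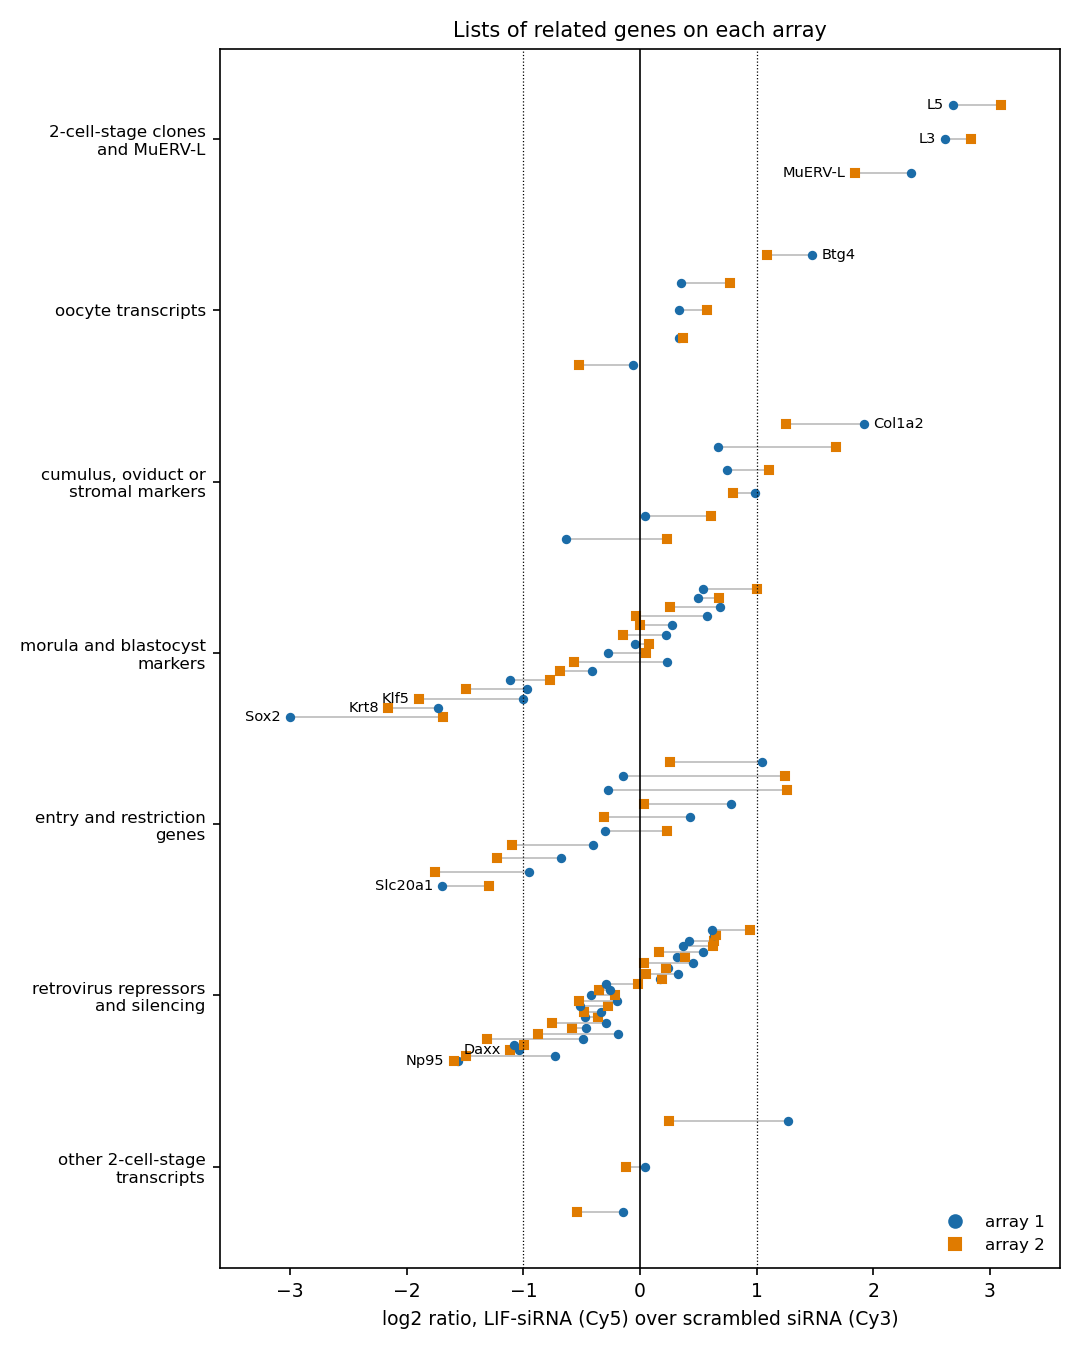
Log2 ratio on array 1 (blue circles) and array 2 (orange squares) of L3, L5 and MuERV-L and of each tested spot of 6 gene lists, 1 row per spot. Dotted lines mark 2-fold, names mark spots past it on both arrays by the deposited ratios (the scrambled-siRNA signal of Col1a2 was not well above background), and no list has spots at the level of L3 and L5.

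Of oocyte transcripts that decline after fertilization, 1 of 5 tested spots was past 2-fold higher on both arrays (2.78% of all tested spots) and none was lower (3.03%), and the median log2 ratio was 0.45. The higher one was Btg4, which drives the clearance of maternal mRNA, with signals of 437 and 191 with LIF-siRNA and of 157 and 89.8 with scrambled siRNA, log2 ratios of 1.48 and 1.09. The dim Btg4 had a mean log2 ratio of 1.28, and of 0.83 with another background correction (normexp with loess). Bmp15, Bcl2l10 and Spin1 also lay above 0 on both arrays, and Plat lay below.

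Most embryo markers were detected. Pou5f1, a transcription factor of pluripotent cells, had signals of 7313 and 8315 with LIF-siRNA and of 8862 and 8038 with scrambled siRNA, log2 ratios of -0.28 and 0.05. Cdh1, the adhesion protein of compaction, had 0.69 and 0.26. Of the morula and blastocyst markers, 15 of 17 spots were tested, none was past 2-fold higher on both arrays (2.78% of all tested spots) and 3 were lower (3.03%), with a median of -0.11. The other 2, Sox17 and Atp1b1, had signals of 11.7 to 28.5, close to blank spots. Only Atp1b1 with LIF-siRNA on array 2 was well above background.

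Those 3 were Sox2, a pluripotency factor (mean log2 ratio of -2.35 ± 0.92, SD, n = 2 arrays), Krt8, a keratin of the trophectoderm (-1.95 ± 0.30), and Klf5, a transcription factor of the early embryo (-1.45 ± 0.63). Krt8 had signals of 1708 and 2131 with LIF-siRNA and of 5679 and 9530 with scrambled siRNA, which did not overlap. Klf5 had a ratio of 0.499 on array 1, just past 2-fold, and with normexp and loess 2 markers in place of 3 were past it. Of the 15, 6 lay below 0 on both arrays and 3 above, among them Tfap2c, a trophectoderm factor (0.50 and 0.68), and Aqp8, a water channel. Signs thus differed among the markers, and the stage of the embryos behind each channel was not tested.

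Markers of cumulus, granulosa, oviduct or stromal cells, which could come with the embryos, lay mostly in the same direction as L3, L5 and MuERV-L. Of 8 spots for 7 genes 6 were tested, and 5 of these lay above 0 on both arrays, as did 36.7% of all tested spots. By the deposited ratios 1 was past 2-fold higher on both (2.78% of all tested spots) and the median log2 ratio was 0.91. The summed signal of the 6 tested spots was 5085 and 5559 with LIF-siRNA against 2861 and 3020 with scrambled siRNA. This total follows its brightest spot, Col3a1, a fibrillar collagen (3752 and 3919 against 1898 and 2249). The spot past 2-fold was Col1a2, another collagen, with signals of 84.9 and 81.1 with LIF-siRNA and of 22.5 and 34 with scrambled siRNA. Its scrambled-siRNA signal was not well above background on either array, so the size of its ratio is not measured. Without Col1a2 the median of the other 5 spots was 0.89.

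Ptx3, made by cumulus cells, had log2 ratios of 0.67 and 1.68, and Ovgp1, the oviduct glycoprotein, of 0.74 and 1.11. Tnfaip6, also of cumulus cells, had -0.63 and 0.23, the tested spot of Star, of steroid-producing cells, had 0.04 and 0.61, and the other Star spot and Col1a1 were not well enough above background to be tested. The part of such cells in the ratios of the 2-cell-stage clones and MuERV-L was not tested.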

How the data were processed

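Each deposited file is the output of Agilent Feature Extraction (version A.7.5.1 per the file headers) for 1 array. The deposited intensity columns hold spot brightness, local background and a processed signal that the authors' software background-subtracted and dye-normalized. For ratios, the deposited column gives log10 of the Cy5 signal divided by the Cy3 signal, normalized by rank-consistent lowess. The software's flags (other columns as deposited) mark control, outlier, saturated and well-above-background spots. The deposited log2 value table of the series holds the mean brightness of both channels and was not used.

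Log ratios were converted to log2. The clones, lists and comparisons were chosen with earlier results of these data known, so no clone was tested. All clones found by name were described, with list genes past 2-fold on both arrays, the cell type markers found and the 5 named spots nearest to L5 by Euclidean distance. Alternatives were normexp (offset 50) with loess, median centring, each replicate left out and other thresholds, and, chosen after seeing the data, the 14 further clones and zone centring. Where the scrambled-siRNA signal was not well above background on either array, no size of a list gene's ratio is read from it. Calls were checked on simulated data with the same noise for all spots and no signal threshold, where changes of the size of the threshold were often missed. That check covers the working of the call rule and does not say how reliable the real calls are. Python 3.11.15, pandas 2.3.3, numpy 2.4.6, matplotlib 3.10.9, R 4.3.3 and limma 3.58.1 were used. None of the 4 clone accessions was found in the RefSeq gene table, and the files used here hold no clone sequences, so no sequence is shown.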

Additional observations from a re-analysis of the deposited data

How the results depend on the processing

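Each log ratio is already the paired difference of both groups on an array. The values are thus paired already, and no further replicate block could be fitted. The number of clones past the criteria stayed at 3 under the 9 alternatives run for it, while all gene spots higher by the criteria numbered 188, against 571 with no signal threshold, 562 with well above background in its place and 82 with both thresholds on each array. L3, L5 and MuERV-L kept their direction, with mean log2 ratios of at least 1.84 in each. The retrotransposon EST had -0.03 with median centring and -0.29 to 0.50 on single arrays. The difference from the 14 clones was 2.40 with normexp and loess, 2.41 with median centring, 2.51 with zone centring and 2.47 without clones close to the background.

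The median of the repressors was -0.30 with normexp and loess, -0.41 with median centring, -0.33 with no filter on dim spots and -0.27 to -0.26 with an array left out. That of the entry and restriction genes was 0.01 over the means of both arrays and -0.29 to -0.14 on single arrays. That of the morula markers was -0.24 with median centring and -0.14 to -0.05 with an array left out. That of the cumulus, oviduct and stromal markers was 0.61 with normexp and loess, 0.72 with no filter and 0.71 to 0.95 with an array left out. The causes were not tested. With normexp and loess, fewer of all tested spots were past 2-fold on both arrays (1.3% higher and 1.65% lower). There, no oocyte and no stromal spot was higher, and 1 repressor and 2 morula markers were lower. With median centring (2.99% and 3.15%), 4 morula markers were lower. On array 2 alone, 9.49% of all tested spots were past 2-fold higher and 7.97% lower, with 3 higher stromal spots, 4 lower repressors and, of the entry and restriction genes, 4 lower and 2 higher. One of these, Apobec2, had a scrambled-siRNA signal not well above background there. Of the 4 lower repressors on array 2, Zfp57 had a LIF-siRNA signal not well above background.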

Other observations

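Host genes of retrovirus entry and restriction had 10 tested spots for 9 genes, with 0 past 2-fold higher (2.78% of all tested spots) and 1 lower (3.03%) on both arrays. Their median log2 ratio was 0.01 over the means of both arrays, but -0.29 on array 1 and -0.14 on array 2. The lower one was Slc20a1, a phosphate transporter whose human counterpart serves as a receptor for gibbon ape leukemia virus. It had signals of 1651 and 2238 after LIF-siRNA and of 5354 and 5485 after scrambled siRNA, log2 ratios of -1.70 and -1.29. Its relative Slc20a2 had 0.43 and -0.31, a direction that differed between arrays. Hyal2, whose sheep counterpart is a receptor of sheep retroviruses, had -0.95 and -1.76 at signals of 136 to 460. Both spots of Mov10, an RNA helicase that restrains retroelements, lay above 0 on both arrays, at 0.78 and 0.03 and at 1.04 and 0.26. Below 0 on both arrays were Trex1, an exonuclease that degrades DNA in the cytoplasm, at -0.41 and -1.10, and Adar, an RNA editing enzyme, at -0.68 and -1.23. Hyal2, Slc20a2, Mov10, Trex1 and Adar were named after their values had been seen.

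An EST moderately similar to an unknown mouse protein was the spot nearest to L5, at log2 ratios of 2.78 and 2.93. Its signals of 9269 and 11258 after LIF-siRNA and of 1352 and 1473 after scrambled siRNA did not overlap. Its gene is not named in the files, and the spot was singled out after its values had been seen.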
